A study of Mus musculus with 4 samples.

Results

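The angiopoietin pathway of the embryonic heart was followed here through 5 genes, chosen by name from the 32285 genes counted in every library. They are *Tek* (encoding the receptor TIE2), *Tie1* (its partner receptor), *Angpt1* and *Angpt2* (the secreted angiopoietins ANG1 and ANG2) and *Ptprb* (the receptor phosphatase VE-PTP). Each gene was read as the rows of its symbol in 4 single-cell RNA sequencing libraries of mouse embryonic hearts at E10.5, with the whole cardiogenic region dissected. Libraries 5 and 7 came from controls, labelled Tie2flfl, and libraries 6 and 8 from mutants, labelled Nfatcre-Tie2flfl and called *Tie2-cko*. All 4 libraries therefore carry the loxP-flanked *Tie2* allele, and only the mutants carry Cre, which is expressed from a constitutive knock-in at *Nfatc1*, a gene of endocardial cells (EdCs). The mice had a mixed 129 and C57BL/6 background and embryos of both sexes were used. Each library was treated as 1 replicate (n = 2 per genotype), so p-values measure only the spread between these libraries. By the methods, the hearts of a genotype came from the same litter. Values are given in the order library 5, library 7 for controls and library 6, library 8 for mutants, and levels as CPM, the UMIs of a gene per 1000000 UMIs summed over the cells of a type in a library.

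In endothelial cells TIE2 is a receptor tyrosine kinase. ANG1, secreted by neighbouring cells, activates it and signals through AKT, which keeps the transcription factor FOXO1 out of the nucleus, while ANG2 acts as an agonist or an antagonist depending on the context. TIE1 binds no angiopoietin on its own but forms complexes with TIE2, and VE-PTP removes phosphate from TIE2. In the developing heart the endocardium lines the myocardium, and loss of either TIE2 or ANG1 in the mouse impairs the endocardium and the trabeculae.

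The libraries held between 169361996 and 259775540 unique molecular identifiers (UMIs, each standing for 1 captured transcript) over 8877 to 18488 barcodes, of which 5684 to 10097 per library were kept as cells, with a median of 14878 to 25875 UMIs. Pairs of libraries shared 29 to 62 barcode sequences. The kept cells formed 26 clusters, which were named from marker genes. Libraries 5 and 6 stood apart from 7 and 8 in the cells they held, with 536 and 564 cells of an unnamed cluster led by *Barx1* against 2 and 2, and 245 and 317 hepatic-like cells against 0 and 53. A block for libraries 5 and 6 against 7 and 8, 1 control and 1 mutant in each, was therefore fitted as an alternative, although no label pairs the libraries. Globin and other red blood cell transcripts were higher in the control libraries in the cell types compared. In chamber EdCs the 5 red blood cell markers summed to 8093 and 2818 CPM in the controls and to 963 and 895 in the mutants, and the part of this difference in the results was not tested.

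On GRCm38 with GENCODE M21 annotation, *Tek* (ENSMUSG00000006386) lies on the plus strand at chr4:94739289-94874976 and *Tie1* (ENSMUSG00000033191) on the minus strand at chr4:118471191-118490061, and no other annotated gene overlaps either. *Angpt1* (ENSMUSG00000022309) lies on the minus strand at chr15:42424723-42676977, where an antisense gene, Gm17473, overlaps an exon. *Angpt2* (ENSMUSG00000031465) lies on the minus strand at chr8:18690263-18741562, inside *Mcph1* of the opposite strand, and an exon of *Mcph1* overlaps it. *Ptprb* (ENSMUSG00000020154) lies on the plus strand at chr10:116275523-116389535, with 2 small genes of the same strand in its introns. How the counting treated strand is not given in the sources used here, so reads of *Angpt2* and *Mcph1* may not be fully told apart, and *Mcph1* gave 136, 122, 128 and 95 UMIs in chamber EdCs of libraries 5, 6, 7 and 8.

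The promoters of the receptor genes are shown because both genes were highest in the same 3 endothelial types. The window searched was RefSeq's, from 250 bases before to 50 after the start that RefSeq gives on GRCm38.p6. For *Tie1* that start lies inside the gene as GENCODE gives it, so most of its window is downstream of the GENCODE start. The core of the ETS motif was spelled AGGAAG or its complement CTTCCT, and 35.4% of 32851 such windows held it. The GATA motif was spelled AGATAA or TTATCT, and 11.2% of windows held it. The *Tie1* window held the ETS letters at 2 places and the *Tek* window held the GATA letters at 1 place, in capitals below, written 5′ to 3′ on the strand of the gene.
Tie1, chr4:118490051-118490080, minus strand: ggaagccactggCTTCCTccctttcctgtc
Tie1, chr4:118489800-118489829, minus strand: accatcatttcctCTTCCTccccagcaccg
Tek, chr4:94739309-94739338, plus strand: ccggagcaggagcagaAGATAAgccttgga
A match of letters is a description of the sequence and not a mapped binding site. *Angpt1*, *Angpt2* and *Ptprb* were named only, with no window shown.

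**Figure D1:**
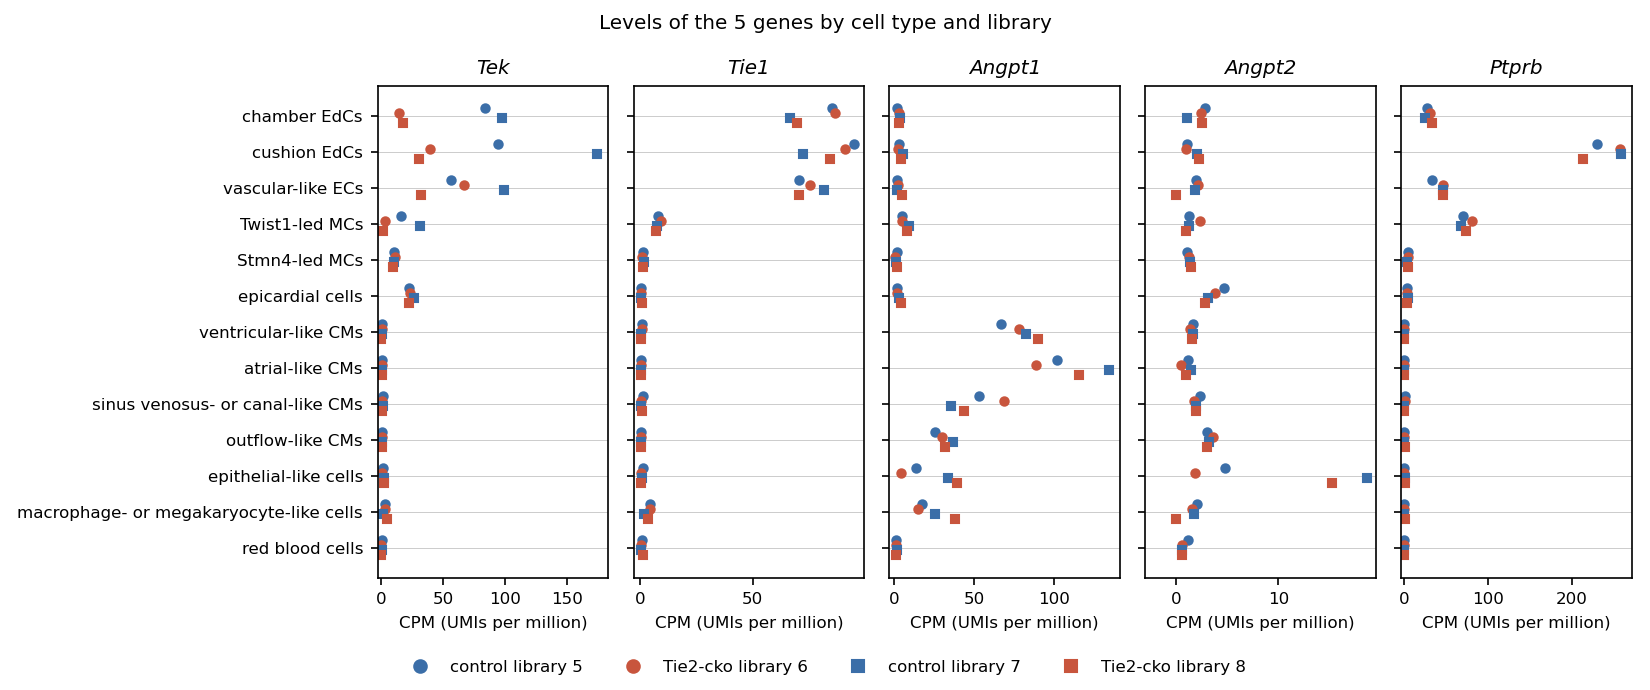
Levels of the 5 genes in CPM (horizontal axis, linear, a separate scale for each gene) in each cell type (rows), with 1 point per library and the genotypes in different colours. *Tek* and *Tie1* stand highest in the 3 endothelial types, *Ptprb* in cushion EdCs and *Angpt1* in atrial- and ventricular-like CMs, and *Tek* points of the *Tie2-cko* libraries lie to the left of the controls in chamber and cushion EdCs.

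Endothelial cells fell into 3 types. Chamber EdCs were 1 cluster of 377 and 594 cells in the controls and 136 and 466 in the mutants, which carried all 7 general endothelial markers and the 4 chamber markers *Emcn*, *Npr3*, *Gata2* and *Gpr182*. Cushion EdCs, the endocardium over the endocardial cushions, numbered 266 and 444 cells in the controls and 127 and 454 in the mutants, with *Nfatc1*, *Wnt4* and *Ptprb* itself among the genes that lead the cluster. Vascular-like endothelial cells (ECs) were few, with 85 and 44 cells in the controls and 71 and 63 in the mutants, and carried 10 of 10 vascular markers, including *Cldn5*, *Clec1b* and *Lyve1*. *Nfatc1*, the gene that drives Cre, gave 49.3 and 47.0 CPM in the controls and 55.9 and 55.1 in the mutants in chamber EdCs, between 150 and 165 in cushion EdCs and between 22.2 and 31.6 in vascular-like ECs.

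*Tek* was detected in every one of the 3 endothelial types and fell in chamber EdCs of the mutants. In chamber EdCs it gave 83.3 and 96.9 CPM in the controls and 14.1 and 17.9 in the mutants, from 617, 906, 82 and 120 UMIs. The mutant libraries lay far below both controls, with means of 16.0 ± 2.67 against 90.1 ± 9.67 (SD, n = 2 each). The log2 fold change was −2.53 (SE 0.179, 95% interval −2.94 to −2.12), which left 17.3% of the control level (interval 13% to 22.9%), with an adjusted p of 0.00496 in edgeR. *Tek* was the only gene of 11524 called in chamber EdCs (0.00868%), where 777 genes had an unadjusted p under 0.05 and DESeq2 called 16 genes. With the block for libraries 5 and 6, edgeR called 870 genes, *Tek* among them (−2.54, adjusted p 1.9e-90). With 1 control and 1 mutant in each block, that fit has little spread left to measure. Its p-values and counts are therefore not comparable with those of the fit without a block. When any of the 4 libraries was left out, the log2 fold change of *Tek* lay between −2.76 and −2.35. Such a fit leaves 1 library in a genotype, so only the size of the difference is given. When vascular-like ECs were counted together with chamber EdCs, the log2 fold change of *Tek* was −1.82 and did not pass (adjusted p 0.735).

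The residual *Tek* counts of chamber EdCs were spread over few cells. When each cell was thinned to 5500 UMIs, to remove the difference in depth, 29.1% and 37.0% of chamber EdCs in the controls held a *Tek* UMI, against 8.73% and 6.47% in the mutants (exact 95% intervals 24.4% to 34.1%, 33.0% to 41.2%, 4.44% to 15.1% and 4.34% to 9.21%, counting error only). The mutant shares lay below both control shares, with a difference of −25.4 percentage points between the means (p = 0.333 in a two-sided exact permutation test, which cannot give less with 2 libraries on each side). In unthinned cells, whose median depth was 15026 and 12579.5 UMIs in the controls and 27193.5 and 11009 in the mutants, a *Tek* UMI was found in 56.5% and 66.7% of chamber EdCs of the controls and in 22.1% and 13.3% of those of the mutants. Cells with 3 or more *Tek* UMIs after thinning made up 2.79% and 2.71% of chamber EdCs in controls, 0% (0 of 126, which allows up to 2.38%) in library 6 and 0.462% in library 8. Cells with exactly 2 made up 7.26% and 6.68% in the controls and 1.59% and 1.62% in the mutants, so cells with more than 1 copy remained in both mutant libraries. Among cells that held any *Tek* UMI, the mean was 1.47 and 1.36 UMIs in the controls and 1.18 and 1.43 in the mutants.

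Free RNA gives UMIs in cells that do not express a gene, and 2 cell types serve as its measure. In cardiomyocytes (CMs) the thinned share with a *Tek* UMI was 0.491% and 0.507% in the controls and 0.472% and 0.0910% in the mutants, at median depths of 27462.5, 20974.5, 47123 and 23290.5 UMIs. In red blood cells it was 0.0885% in library 5 and 0% in libraries 6, 7 and 8, where 0 cells allow up to 0.621%, 0.493% and 1.75%. The residual share in chamber EdCs of the mutants was above both backgrounds in each library. The counts are per gene, and transcripts of the deleted and the intact allele were not told apart. Which exons are removed is not given in the sources used here. The methods name the library kits by part number but do not state which part of the transcript the reads cover.

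**Figure D2:**
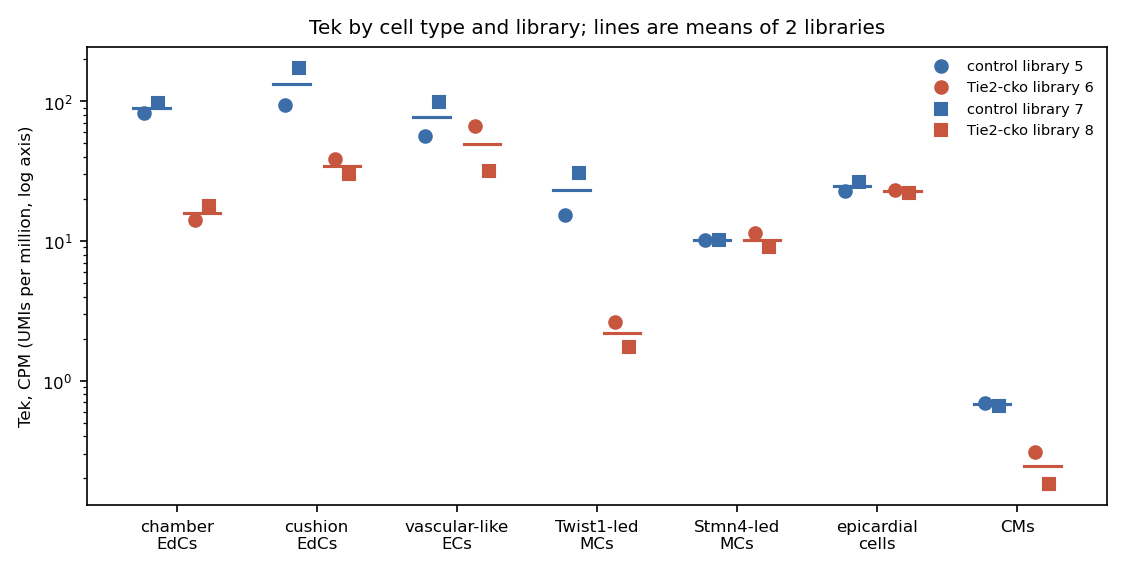
*Tek* in CPM (vertical axis, log scale) by cell type, with 1 point per library and a short line at the mean of the 2 libraries of a genotype. The genotypes are apart in chamber EdCs, cushion EdCs, Twist1-led MCs and CMs, and overlap in vascular-like ECs, Stmn4-led MCs and epicardial cells.

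Cushion EdCs held the highest *Tek* level of any cell type in the control hearts, with 94.2 CPM in library 5 and 174 in library 7, against 39.0 and 30.4 in the mutants. The genotypes did not overlap, although the control libraries lay far apart from each other. The log2 fold change was −2.01 (95% interval −2.63 to −1.40), or 24.8% of the control level, and did not pass the threshold in edgeR (unadjusted p 3.9e-05, adjusted p 0.0883), where the 3 genes called of 11365 (0.0264%) were globins. DESeq2 gave an adjusted p of 1.88e-09 for *Tek*. edgeR with the block for libraries 5 and 6 gave 9.4e-66, in a fit with little spread left to measure. The value in edgeR was −2.39 without library 5, −2.16 without library 6, −1.49 without library 7 and −1.87 without library 8. The thinned share of cushion EdCs with a *Tek* UMI was 27.8% and 54.7% in the controls and 13.5% in both mutant libraries.

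Vascular-like ECs held *Tek* at 56.1 and 98.7 CPM in the controls and at 66.6 and 32.0 in the mutants. The genotypes overlapped, since library 6 lay above control library 5. The log2 fold change was −0.57 with an interval from −1.44 to 0.31 (adjusted p 1.00 in edgeR, in which 3 of 8599 genes were called, 0.0349%, all globins), which contains no change as well as a decrease to 36.8% of the control level. Thinned shares were 27.8% and 39.5% in the controls and 27.1% and 16.7% in the mutants, on 38 to 79 cells per library.

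The genotype difference of *Tek* was then compared between the endothelial types, with the library as a block. In vascular-like ECs the log2 fold change was less negative than in chamber EdCs by 2.04 (95% interval 1.30 to 2.78). This difference had an unadjusted p of 3.3e-05 and an adjusted p of 0.0823 in edgeR. Without library 8 the difference was 2.58, and without library 6 it was 1.18. Between cushion and chamber EdCs the difference was 0.56 (interval −0.05 to 1.18, adjusted p 0.997). For *Tie1*, *Angpt1*, *Angpt2* and *Ptprb*, where tested, no such difference between endothelial types passed the threshold. In each of these comparisons with chamber EdCs 1 of 11976 genes was called (0.00835%), *Barx1* for vascular-like ECs and *Gap43* for cushion EdCs, both named after their values were seen.

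**Figure D3:**
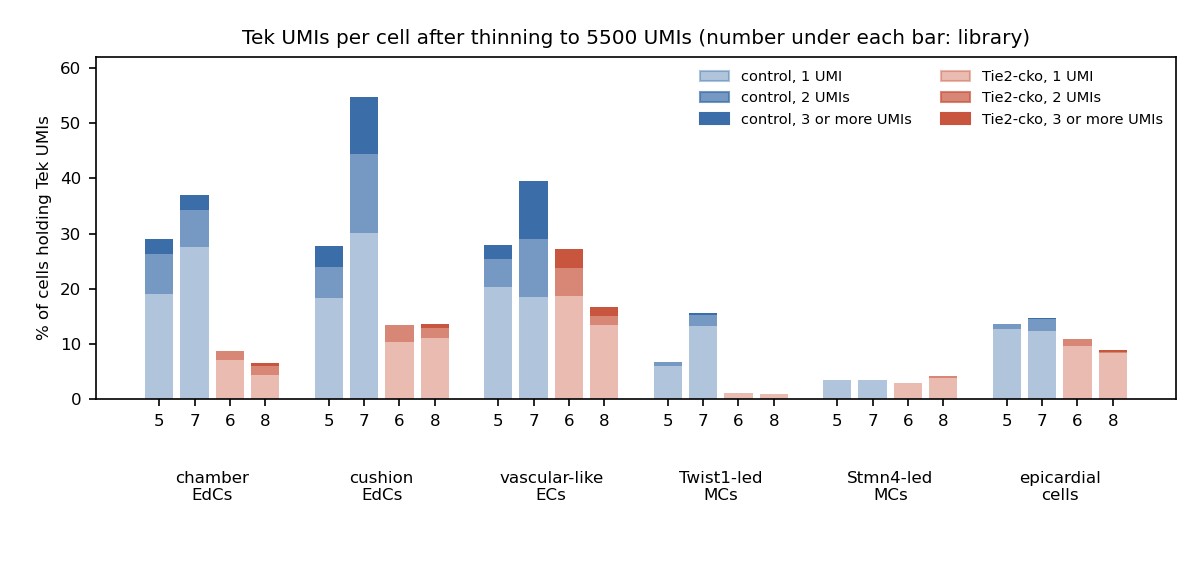
Share of cells (vertical axis, %) that held 1, 2 or 3 or more *Tek* UMIs after each cell was thinned to 5500 UMIs, stacked in 1 bar per library and grouped by cell type. In chamber EdCs the bars of the mutants reach 8.73% and 6.47%, against 29.1% and 37.0% in the controls. In epicardial cells the 4 bars lie between 8.92% and 14.7%, with both mutant bars below both control bars.

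*Tek* was also detected outside the endothelium, in mesenchymal cells (MCs) and in epicardial cells. The marker genes do not place the MCs in a part of the heart. The results on these cells were added after the data had been seen. MCs formed 2 kinds of clusters, named here by their leading genes. Twist1-led MCs (542 and 1039 cells in the controls, 208 and 821 in the mutants) led with *Twist1*, *Hapln1* and *Msx1*, and Stmn4-led MCs (118 and 153, 75 and 241 cells) with *Stmn4*, *Postn* and *Tgfbi*. In Twist1-led MCs *Tek* gave 15.5 and 31.0 CPM in the controls and 2.64 and 1.73 in the mutants, with no overlap. The log2 fold change was −3.53 (95% interval −4.52 to −2.55, or 8.63% of the control level), with an adjusted p of 0.387 in edgeR, which called none of 12144 genes there (0%) although 91 had an unadjusted p under 0.05. The value passed the threshold in DESeq2 and in edgeR with the block for libraries 5 and 6 (−3.63, adjusted p 1.9e-67), a fit with little spread left to measure. With 1 library left out it lay between −3.94 and −2.92.

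In Stmn4-led MCs *Tek* gave 10.2 and 10.1 CPM in the controls and 11.3 and 9.13 in the mutants. The genotypes overlapped, and the log2 fold change was −0.05 with an interval from −0.72 to 0.62, on 20 to 37 UMIs per library. edgeR called 5 of 9751 genes in these cells (0.0513%), which were 4 globins and *Mt1*. The log2 fold change in Stmn4-led MCs was less negative than that in Twist1-led MCs by 3.47 (95% interval 2.72 to 4.23, adjusted p 1.5e-08 in edgeR with the library as a block, 0.0342% of genes called). This difference lay between 2.87 and 3.87 when any of the 4 libraries was left out. *Nfatc1* was present in both kinds, with 19.7 to 24.0 CPM in Twist1-led and 12.6 to 18.4 in Stmn4-led MCs. *Tie1* gave 7.01 to 9.42 CPM in the former (57 to 95 UMIs per library) and 0.873 to 1.84 in the latter (2 to 5 UMIs). The 7 endothelial markers summed to 183 to 211 CPM in Twist1-led MCs and to 129 to 144 in Stmn4-led MCs, and their part in the *Tek* difference was not tested. Over the MCs of all 3 clusters the log2 fold change of *Tek* was −2.39 (adjusted p 0.376 in edgeR, which called 0 of 12597 genes, 0%, with 141 at an unadjusted p under 0.05, and 9 called by DESeq2). It passed in edgeR with the block (−2.45, adjusted p 5.7e-48), again with little spread left to measure.

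Epicardial cells, the outer layer of the heart (310 and 435 cells in the controls, 154 and 648 in the mutants), held *Tek* at 22.7 and 26.7 CPM in the controls and at 23.3 and 22.2 in the mutants. The genotypes overlapped, and the log2 fold change was −0.15 with an interval from −0.49 to 0.20 (adjusted p 1.00 in edgeR, in which 4 of 11943 genes were called, 0.0335%, all globins). The difference from chamber EdCs was 2.37 on the log2 scale (95% interval 2.02 to 2.72, adjusted p 3.4e-06 in edgeR, 0.214% of genes called) and stayed between 2.23 and 2.58 when any of the libraries was left out. *Tie1* was nearly absent from these cells, with 4 and 4 UMIs in the controls and 1 and 11 in the mutants, beside 185, 228, 155 and 319 UMIs of *Tek*. Of other endothelial genes, *Erg* had no UMI in any library and *Cdh5* lay between 0.753 and 1.52 CPM. The thinned share of epicardial cells with a *Tek* UMI was 13.6% and 14.7% in the controls and 10.9% and 8.92% in the mutants, above the shares in CMs. Both mutant shares lay below both control shares, unlike the levels in CPM, which overlapped. The means of the shares differed by −4.22 percentage points (p = 0.333 in the two-sided exact permutation test, which cannot give less).

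In CMs *Tek* was at 0.688 and 0.664 CPM in the controls and 0.309 and 0.181 in the mutants, on 72, 60, 26 and 22 UMIs. These levels had a log2 fold change of −1.51 (unadjusted p 0.0064, adjusted p 1.00 in edgeR). The number of *Tek* UMIs per *Tie1* UMI in CMs, 1.22 and 1.5 in the controls and 0.591 and 0.458 in the mutants, was lower in the mutants, as it was in chamber EdCs (0.978 and 1.46 against 0.162 and 0.256). edgeR called none of 15637 genes in CMs (0%), with 69 at an unadjusted p under 0.05 and 2 called by DESeq2.

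The cell types that supplied the *Tek* UMIs differed between libraries. The 3 endothelial types held 69.0% and 72.6% of all *Tek* UMIs of kept cells in the controls and 57.1% and 45.3% in the mutants. Epicardial cells held 10.9% and 8.41% in the controls, against 20.4% and 40.7% in the mutants, where library 8 also had the most epicardial cells. Vascular-like ECs held 24.5% of the *Tek* UMIs of library 6 and 1.96% to 6.68% of those of the other libraries. Such shares depend on the number of cells captured of each type.

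**Figure D4:**
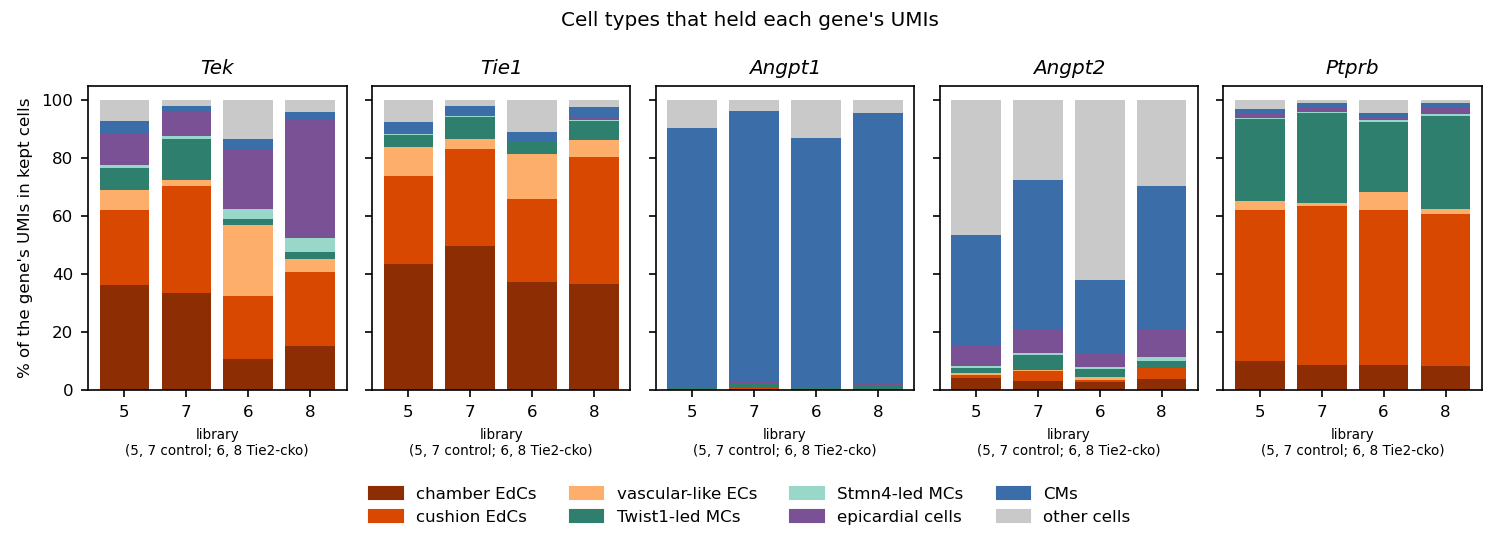
Share of the UMIs of each gene in kept cells (vertical axis, %) by the cell type that held them, stacked in 1 bar per library (5 and 7 control, 6 and 8 *Tie2-cko*). *Angpt1* comes from CMs for 86.0% or more in each library, and the epicardial part of *Tek* is larger in the mutant libraries.

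*Tie1*, whose product joins TIE2 in a complex, did not pass the threshold in any endothelial type. In chamber EdCs it gave 85.2 and 66.5 CPM in the controls and 86.8 and 69.7 in the mutants. The genotypes overlapped and the libraries differed more within than between genotypes, with a log2 fold change of −0.0035 (95% interval −0.39 to 0.39, adjusted p 1.00 in edgeR). In cushion EdCs the levels were 94.9 and 72.2 in the controls and 91.3 and 84.2 in the mutants, and in vascular-like ECs 70.5 and 81.9 against 75.6 and 70.6. The log2 fold changes there were 0.03 (interval −0.33 to 0.38) and −0.06 (−0.58 to 0.46). After thinning, 38.3% and 29.1% of chamber EdCs held a *Tie1* UMI in the controls and 38.9% and 29.3% in the mutants. The 3 endothelial types held between 81.4% and 86.8% of all *Tie1* UMIs, and Twist1-led MCs followed at 7.01 to 9.42 CPM.

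*Ptprb* was highest in cushion EdCs. In cushion EdCs it gave 230 and 258 CPM in the controls and 257 and 212 in the mutants, which overlapped (log2 fold change −0.11, interval −0.44 to 0.22). Twist1-led MCs came next with 70.6 and 68.3 in the controls and 81.1 and 74.0 in the mutants, and these cells held 24.1% to 31.8% of all *Ptprb* UMIs, beside 52.0% to 55.0% in cushion EdCs. Chamber EdCs had 28.1 and 25.0 in the controls and 30.8 and 33.8 in the mutants. Both mutant libraries of chamber EdCs and of Twist1-led MCs lay above both controls, by 0.24 (interval −0.12 to 0.60, adjusted p 0.845 in edgeR) and 0.11 (interval −0.17 to 0.38, adjusted p 1.00), and neither passed the threshold. Of all genes tested, 37.7% in chamber EdCs and 24.6% in Twist1-led MCs had both libraries of 1 genotype above both of the other. In vascular-like ECs *Ptprb* gave 33.3 and 46.5 in the controls and 46.2 in both mutants.

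*Angpt1*, the agonist, came mostly from the myocardium. CMs gave 65.6 and 78.6 CPM in the controls and 72.7 and 81.4 in the mutants, and held 89.5% and 93.7% of all *Angpt1* UMIs in the controls and 86.0% and 93.5% in the mutants. The genotypes overlapped, with a log2 fold change of 0.08 (interval −0.26 to 0.41, adjusted p 1.00 in edgeR). After thinning, 26.1% and 27.1% of CMs held an *Angpt1* UMI in the controls and 27.8% and 28.4% in the mutants.

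Among the myocardial regions, atrial-like CMs had the highest *Angpt1* level in the controls, 102 and 135 CPM, and the mutants had 88.9 and 116. Ventricular-like CMs followed with 66.6 and 82.5 in the controls, a range that did not overlap that of atrial-like CMs, and 78.1 and 89.8 in the mutants. Sinus venosus- or canal-like CMs gave 53.0 and 35.7 against 68.9 and 43.9, and outflow-like CMs 25.6 and 36.5 against 29.8 and 31.6, and their control ranges overlapped. *Angpt1* passed the threshold in no region, edgeR having called no gene in any of the 4 (0%, with 83 to 142 genes at an unadjusted p under 0.05), and the log2 fold changes lay between −0.23 (atrial-like, interval −0.68 to 0.22) and 0.32 (sinus venosus- or canal-like, interval −0.29 to 0.92). Outside the myocardium 1 unnamed cluster led by *Lhx2*, *Ptn* and *Col1a1* gave 37.9 and 88.4 CPM in the controls and 30.5 and 34.0 in the mutants. Its value in library 7 rested on 31 UMIs in 27 cells. An unnamed cluster led by *Prrx1* gave 6.09 and 13.4 against 25.7 and 18.6, with no overlap (log2 fold change 1.08, interval 0.25 to 1.91, unadjusted p 0.016 in edgeR). There edgeR called 0 of 11634 genes, with 291 at an unadjusted p under 0.05, and 3645 did not overlap in 1 direction or the other. Epithelial-like cells gave 13.4 and 33.6 against 4.50 and 39.5, and macrophage- or megakaryocyte-like cells 17.6 and 25.8 against 14.6 and 37.8. The control ranges of the last 2 overlapped that of outflow-like CMs. In MCs the levels were 4.33 and 7.94 in the controls and 3.71 and 6.28 in the mutants, and in epicardial cells 1.47 and 3.16 against 1.51 and 4.04, with log2 fold changes of −0.32 and 0.35 whose intervals spanned 0. In chamber EdCs *Angpt1* lay between 1.89 and 3.42 CPM. The cells with the ligand and those with the receptor were thus largely different ones, and the correlation of *Tek* with *Angpt1* over 28 sums of cell type and control library was −0.52.

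*Angpt2*, the context-dependent ligand, had few UMIs, 325 to 522 per library in all kept cells. In chamber EdCs it gave 2.83 and 1.07 CPM in the controls and 2.41 and 2.53 in the mutants, on 10 to 21 UMIs. The genotypes overlapped, and the log2 fold change of 0.34 had an interval from −0.82 to 1.49 (adjusted p 0.94 in edgeR), so that neither a decrease to 56.6% nor an increase to 282% of the control level could be told from no change at this depth. In cushion EdCs *Angpt2* lay between 0.946 and 2.27 CPM, and in vascular-like ECs it had 4 and 1 UMIs in the controls and 6 and 0 in the mutants and was not tested. Epithelial-like cells gave 4.82 and 18.6 in the controls and 1.89 and 15.3 in the mutants, and epicardial cells 4.66 and 3.16 against 3.76 and 2.86. Cell types with few cells in library 7 lay above these in library 5, at 17.4 in an unnamed cluster led by *Foxe1* (4 UMIs), 7.71 in neural-like cells (10 UMIs) and 7.0 in the *Barx1*-led cells (54 UMIs). The *Foxe1*-led cells gave 32.1 in library 6, on 14 UMIs. In the *Prrx1*-led cells *Angpt2* was at 4.27 and 4.52 in the controls and 16.7 and 5.34 in the mutants (log2 fold change 0.96, interval −0.14 to 2.06). CMs, the most numerous cells, had 1.85 in both controls and 1.58 and 1.72 in the mutants, and held 25.5% to 51.4% of all *Angpt2* UMIs.

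**Figure D5:**
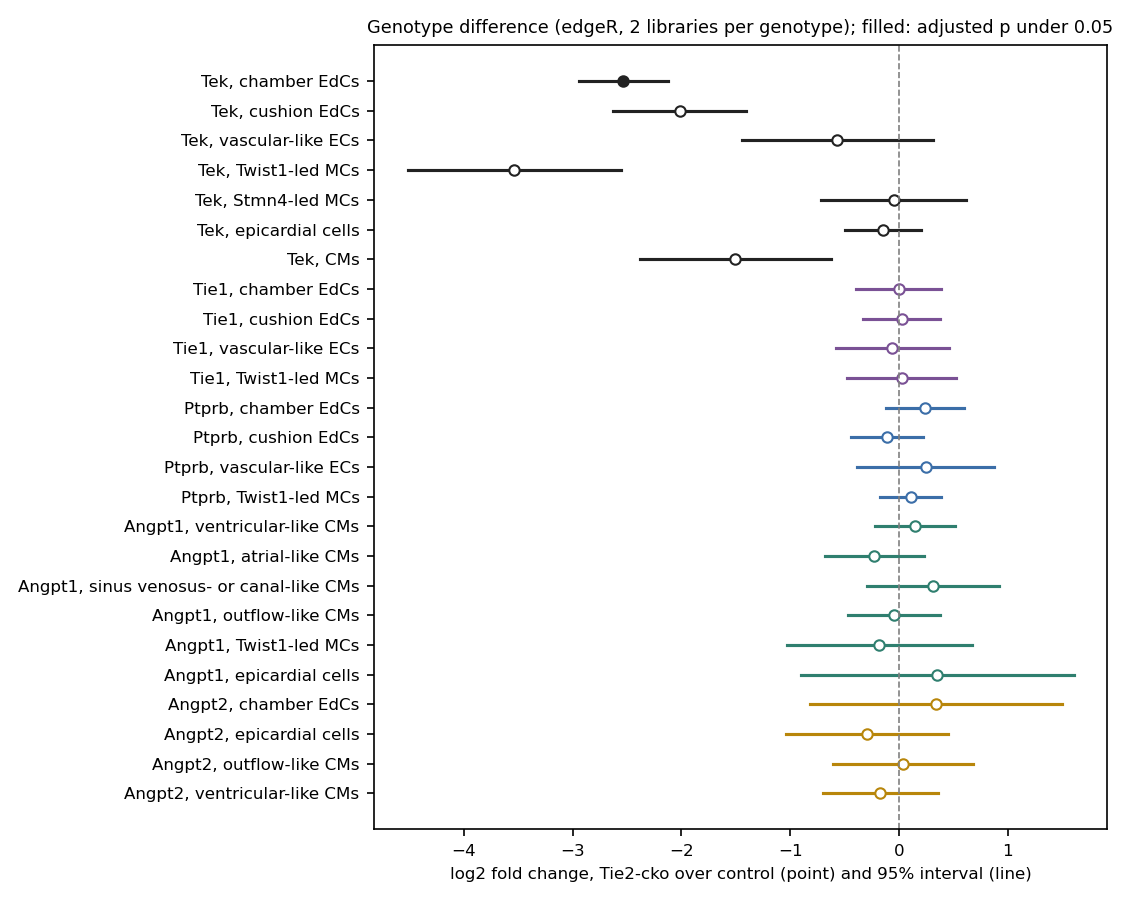
Log2 fold change, *Tie2-cko* over control, of each gene in selected cell types (horizontal axis), with the 95% interval as a line and the filled point for an adjusted p under 0.05 in edgeR. Not every cell type tested is shown, and *Angpt1* in the *Prrx1*-led cells (interval 0.25 to 1.91) is among those left out. *Tek* in chamber EdCs is the only filled point, at −2.53, and the intervals of *Tie1*, *Angpt1*, *Angpt2* and *Ptprb* in the cell types shown include 0.

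In the control hearts the order of *Tek* levels was cushion EdCs, chamber EdCs and vascular-like ECs, each range over the 2 libraries overlapping with the next, then epicardial cells and Twist1-led MCs, which overlapped each other, then Stmn4-led MCs at 10.2 and 10.1 CPM. *Tie1* had the order cushion EdCs, vascular-like ECs and chamber EdCs, all overlapping. For likeness of pattern, each gene was correlated with 14539 genes over the same 28 sums, as log2(CPM + 1). The closest to *Tek* were *Flt1* (Pearson r 0.955), a VEGF receptor, *Tns2* (0.950) and *Ppp1r13b* (0.944), and to *Tie1* *Scarf1* (0.972), *Cdh5* (0.971), the cadherin of endothelial junctions, and *Ccm2l* (0.969). The closest to *Ptprb* were *Adcy4* (0.943), 1110032F04Rik (0.932) and *Trim16* (0.928), to *Angpt1* *Glrx* (0.901), *Mettl23* (0.885) and *Rnf207* (0.879), and to *Angpt2* *Dcx* (0.858), *Flrt1* (0.845) and *C1ql1* (0.826). *Tek* had r 0.874 with *Tie1* and 0.908 with *Ptprb*. Sums of 1 library share its depth and free RNA, so these values describe the libraries and carry no test.

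The signalling genes around the receptors were followed as a list of 35, which held co-ligands, receptor partners, adaptors, PI3K and AKT, the FOXO factors and other effectors. In chamber EdCs 30 of the 35 were tested and edgeR called none in either direction, with none at an unadjusted p under 0.05 and none called by DESeq2. Their median log2 fold change was 0.06, against 0.0050 over all genes tested, and 7 genes had both mutant libraries above both controls and 0 below, where 37.7% of all genes tested did not overlap in 1 direction or the other. Among the genes with the lowest p was *Itgb1*, an integrin subunit, with 322 and 318 CPM in the controls and 414 and 381 in the mutants (log2 fold change 0.26, interval −0.03 to 0.56). *Itgav*, *Ptpn11* and *Pik3ca* had log2 fold changes of 0.33, 0.24 and 0.22. *Foxo1*, which encodes the factor that TIE2 signalling restrains and was named after its values were seen, gave 48.9 and 42.9 in the controls and 44.7 and 43.2 in the mutants (−0.11, interval −0.44 to 0.22).

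In cushion EdCs 30 genes of the list were tested, with 7 above and 4 below in both mutant libraries and a median of 0.06, against 0.0011 over all genes, of which 29.5% had libraries that did not overlap. In vascular-like ECs 23 were tested, with 5 above and 3 below and a median of 0.03, against −0.00061, and 25.3% of all genes did not overlap. edgeR called none of them in either type, and none had an unadjusted p under 0.05. *Foxo1* was among those below in cushion EdCs, with 81.7 and 76.5 CPM in the controls and 72.4 and 73.0 in the mutants (log2 fold change −0.17).

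As a check of the cells, 9 endothelial genes were compared in chamber EdCs, and edgeR called none of them, where it called 1 of 11524 genes. All but *Erg* were also marker genes used to name clusters, so the check is not independent of the naming. *Emcn*, which encodes the endocardial sialomucin endomucin, gave 493 and 484 CPM in the controls and 685 and 659 in the mutants (log2 fold change 0.41, interval 0.13 to 0.70, unadjusted p 0.0099, adjusted p 0.546). *Erg*, an endothelial ETS factor, had 20.2 and 17.2 against 31.1 and 22.3, and *Cldn5*, a tight junction gene that marks vascular ECs, 9.18 and 11 against 6.19 and 7.0, with unadjusted p of 0.046 and 0.021. *Cdh5* gave 193 and 235 in the controls and 227 and 225 in the mutants, so that a general endothelial gene was measured at like levels in the cells in which *Tek* was at 17.3% of the control level.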

How the data were processed

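Single-cell libraries of E10.5 hearts (2 control, 2 *Tie2-cko*) were analysed from the UMI counts that the authors deposited, raw Cell Ranger output for each gene and barcode. The file header gives version 6.1.2, and the methods name another. The submitters' processing notes name mm10, and the annotation behind the counts is not given in the sources used here. By the methods, control and mutant libraries were matched by somites within a litter and run in 1 lane, but which match is not given. The methods also place the 2 hearts of a genotype in the same litter, so the libraries may not stand for separate litters.

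Cells were barcodes with 500 or more genes, 1000 or more UMIs and no more than 10% of UMIs from mitochondrial genes. The highest Scrublet scores (scanpy 1.11.5) were removed as presumed doublets, at 0.8% per 1000 barcodes. Seurat 5.3.0 clustered the cells without integration on 2000 variable genes, excluding 48 genes (the members and the genes compared). It used 30 principal components, 20 nearest cells and resolution 0.8. A cluster was named from a marker list when over 0.5 of the list, and no fewer than 3 genes, reached 0.25 of the level of the highest cluster. Clusters of few UMIs, and those with low *Nrg1* or *Postn* for their type, were left out of the names, a condition set after clusters had been seen.

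UMIs were added up over the cells of a type in each library (20 cells or more), and levels are CPM of such a sum. edgeR 4.0.16 (TMM, filterByExpr, quasi-likelihood test) gave log2 fold changes, with Benjamini-Hochberg adjustment over all genes tested in the cell type and a threshold of 0.05. Differences of the genotype effect between cell types were tested with the library as a block. DESeq2 1.42.0 was an alternative. Shares of cells with a UMI were taken after thinning each cell to 5500 UMIs, cells below that depth being left out, with exact binomial (Clopper-Pearson) intervals of 95%, and the limit that 0 cells allow is 3 cells. Intervals cover counting error only. The scripts were tested on simulated counts. Scripts ran in Python 3.11.15 (scipy 1.17.1, numpy 2.4.6, pandas 2.3.3) and R 4.3.3.

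The genes named are the 5 members, the 5 genes of the pathway list with the lowest p in chamber EdCs (1 of which is not reported here), 9 endothelial genes and, for each member, the 3 genes most like it in pattern. Others are said to have been named after their values were seen, or lead a cluster. The members and lists were chosen with earlier results of these data known.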

Additional observations from a re-analysis of the deposited data

Results flagged for a closer look

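The log2 fold change of *Tek* was −0.15 in epicardial cells and −2.53 in chamber EdCs. It was less negative in epicardial cells by 2.37 (adjusted p 3.4e-06 in edgeR with the library as a block). This difference between cell types under the same contrast was tested after the data had been seen. In Stmn4-led MCs the log2 fold change of *Tek* was −0.05, and in Twist1-led MCs −3.53. It was less negative in Stmn4-led MCs by 3.47 (adjusted p 1.5e-08 in the same kind of test), likewise tested after the data had been seen.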

How the results depend on the processing

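Over 28 results and 340 alternatives, 288 kept the direction and the side of the threshold, 1 lost and 22 gained the threshold, 21 turned in sign and 8 moved a count, the cause not being tested. Fits with the block or with 1 library left out have little spread left to measure, so a gain of the threshold there is not read as support. *Tek* in chamber EdCs lost the threshold (−1.82, adjusted p 0.735 in edgeR) when vascular-like ECs were counted with them, an alternative added after seeing the data, and ranged from −2.76 to −2.35 with 1 library left out. *Tek* in cushion EdCs passed with DESeq2 (−2.01), without the filter on low counts (−2.01), with a block for libraries 5 and 6 (−2.01), with the strict cell filter (−2.0) and with doublets kept (−2.01). It ranged from −2.39 to −1.49 with 1 library left out. The difference of *Tek* between vascular-like and chamber EdCs passed without the filter (2.05) and ranged from 1.18 to 2.58 with 1 library left out. The number of genes called in chamber EdCs was 1, but 16 with DESeq2, 159 without the filter, 870 with the block, 0 with vascular-like ECs counted and 20 to 164 with 1 library left out.

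Signs turned for values that had not passed the threshold. With 1 library left out, *Angpt1* ranged from −0.036 to 0.20 in CMs (−0.012 without library 8), −0.86 to 0.22 in MCs, −0.70 to 1.01 in epicardial cells (−0.093 without library 5) and −0.0027 to 0.31 in ventricular-like CMs. *Angpt2* ranged from −0.20 to 0.59 in MCs and −0.25 to 1.16 in chamber EdCs, *Ptprb* in vascular-like ECs from −0.030 to 0.45 and *Tek* in Stmn4-led MCs from −0.14 to 0.063. *Tie1* ranged from −0.18 to 0.19 in chamber EdCs (0.12 without library 8), −0.16 to 0.23 in cushion EdCs (−0.0011 without library 6) and −0.18 to 0.035 in vascular-like ECs. *Tie1* in chamber EdCs was 0.00087 with the block, 0.020 with the strict filter, 0.012 with doublets kept and 0.037 with the few-UMI cluster added, and at resolution 1.2 it was −0.061 in cushion and 0.18 in vascular-like cells.

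At resolution 0.4 no vascular-like cluster was found, so its results had no value there. Cushion EdCs then numbered 1551 cells, against 1291 beside 263 vascular-like ECs in the main clustering. *Tek* in these cushion EdCs was −1.67, and which cells had joined them was not tested. Over the alternatives, the adjusted p of *Tek* in cushion EdCs reached 0.9999 in edgeR. The difference in thinned *Tek* share of chamber EdCs ranged from −43.9 to −18.5 percentage points over all settings, and from −29.4 to −21.5 with 1 library left out. The labels give the genotypes no shared replicate number, so the block rests on the cell makeup of the libraries and not on a labelled pairing. Depth limits *Angpt2* (10 to 21 UMIs per library in chamber EdCs) and *Tek* in vascular-like ECs (34 to 186 UMIs).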
